A study of Mus musculus with 8 samples.

Results

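Nicotinic acetylcholine receptors and the small Ly6 proteins that act on them were followed as 9 genes in sorted amygdalar intercalated cells of the mouse embryo. The 9 genes were taken by name: 4 Ly6 family modulators (Lypd1, Lypd6, Lypd6b and Lynx1) and 5 receptor subunit genes (Chrna3, Chrna4, Chrna5, Chrna7 and Chrnb2), out of 32543 genes in the count table. They were chosen by name with the knockout against control CPM and fold changes of these same libraries already known, so that contrast is given for them as a description, without a test of its own, and supports nothing further. All 9 were found, and 8 of them passed the filter on low counts. Chrna5 did not.

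The cells were sorted for GFP at E16.5 (embryonic day) from dissected amygdala tissue, pooled over embryos of 1 genotype. Control pools were Tshz1GFP/+ and knockout pools were Tshz1GFP/RA, with 4 libraries each. Both genotypes carry the GFP allele, beside a + allele in controls and the RA allele, which the labels do not describe, in knockouts. The gate thus rests on a reporter named for the same locus. All mice were on an outbred background. The 4 title prefixes NX, NY, QT and RM each name 1 control and 1 knockout library, and the labels do not explain them. The series' design text speaks of triplicates, while 4 samples per genotype are labelled. Nothing in the labels ties the pools to separate litters, so errors describe the spread between pools.

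The libraries held between 5785612 and 14535867 expected counts each. A floor of 3 counts corresponded to 0.186 to 0.545 CPM, which are counts scaled to library size with TMM composition factors. The floor covers counting error only. Tshz1, the targeted gene, lay between 240.0 and 492 CPM in controls and between 55.9 and 121 CPM in knockouts (log2 fold change -2.27, SE 0.30; adjusted p = 0.0388 by edgeR's quasi-likelihood test), in the direction the labels give. That call was lost in 6 of 8 fits that left out 1 library, all but those without knockout NX or control NY. All 12 genes of an intercalated cell marker list passed the count filter, at levels far apart. In controls, Foxp2 had 478 ± 278 CPM and Meis2 had 1458 ± 315 CPM (SD, n = 4). Low members of the same list were Drd1 at 8.86 ± 3.82, Oprm1 at 5.10 ± 2.83 and Gsx2 at 1.51 ± 0.643 CPM. Of a cholinergic neuron list, Chat and Gbx2 were at 0 in all libraries, while Isl1 had 4.33 ± 3.32 CPM in controls and 6.67 ± 5.28 CPM in knockouts and Lhx8 had 1.41 ± 1.31 and 1.71 ± 1.41 CPM. The list summed to 1.18 to 13.8 CPM in controls and 0.953 to 16.4 CPM in knockouts. In bulk libraries, fewer cells of a type and less RNA per cell cannot be told apart.

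Nicotinic receptors are cation channels built from a ring of subunits and opened by acetylcholine. In the brain, the subunits of Chrna4 and Chrnb2 form the main high-affinity receptor, and the Chrna7 subunit can form a receptor alone. Chrna3 and Chrna5 lie with Chrnb4 in a gene cluster best known from autonomic ganglia, where Chrna5 encodes an accessory subunit. The Ly6 proteins share the three-finger fold of snake toxins, sit on the cell surface by a lipid anchor, and tune how receptors assemble, open and desensitise. Lynx1 is known as a brake on plasticity in the adult cortex, and the protein of Lypd1, also called Lynx2, as a modulator of nicotinic receptors linked to anxiety.

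Lypd1 had the largest log2 difference between genotypes of the 8 members tested. Its level was 89.4 (NX), 38.8 (NY), 35.3 (QT) and 66.5 CPM (RM) in the control libraries. In the knockout libraries it was 19.1 (NX), 9.11 (NY), 3.81 (QT) and 6.16 CPM (RM). The lowest control library lay above the highest knockout library, so the genotypes did not overlap. The means were 57.5 ± 25.5 and 9.53 ± 6.71 CPM (SD, n = 4 each), a 5.91-fold lower fitted level in the knockout and a log2 fold change of -2.56 (SE 0.47). By counts, 1442, 524, 461 and 366 fragments in the controls stood against 280, 110, 25 and 37 in the knockouts, in the same order of prefixes.

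Between libraries that share a prefix, control Lypd1 was 4.69 times the knockout level in NX, 4.26 times in NY, 9.27 times in QT and 10.8 times in RM. Control Tshz1 was 4.07 times its knockout level in NX, 3.89 times in NY, 5.85 times in QT and 6.03 times in RM. Both genes thus had their smaller ratios in NX and NY and their larger ones in QT and RM, a description over 4 pairs of libraries that also differ in depth, with the knockout QT and both RM libraries the shallowest. The log2 fold change of Lypd1 lay between -3.16 (without the knockout NX library) and -2.26 (without the control NX library) when any single library was left out.

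Marker lists of other cells also differed between libraries. Summed over 12 genes with Tshz1 among them, intercalated cell markers spanned 1984 to 3478 CPM in controls and 1557 to 2223 CPM in knockouts, and 9 of 12 were fitted lower. Pallial glutamatergic markers (8 genes, 6 fitted higher) spanned 43.6 to 381 CPM in controls and 175 to 526 CPM in knockouts. Progenitor markers (8 genes, 5 fitted higher) spanned 145 to 796 CPM and 191 to 1108 CPM. Interneuron markers of the medial ganglionic eminence (6 of 7 tested fitted higher) spanned 36.0 to 232 CPM and 157 to 297 CPM. General GABAergic markers (6 of 7 fitted lower) spanned 1626 to 2470 CPM and 1788 to 1952 CPM. Astrocyte and oligodendrocyte precursor markers (6 of 7 tested fitted lower) spanned 1.67 to 109 CPM and 9.26 to 111 CPM. All 6 tested microglia genes of a list of 8 were fitted lower in the knockout, as were 3 of 3 tested vascular genes of a list of 8, and no gene of these lists was at 0 in all libraries. Microglia genes summed to 3.10 to 109.8 CPM in controls and 6.47 to 39.3 CPM in knockouts, and vascular genes to 1.30 to 49.1 CPM and 2.31 to 13.1 CPM. The control NX library, which had the highest Lypd1, had the lowest summed level of the microglia, vascular, astrocyte, pallial, interneuron and progenitor lists and the highest of the intercalated and GABAergic lists. The summed ranges of these 8 lists overlapped between genotypes. That of the intercalated list did so although Tshz1, 1 of its genes, did not overlap by itself. Sums follow the most abundant genes. In controls Meis2 of the intercalated list had a mean of 1458 CPM and Gad2 of the GABAergic list 1372 CPM, so overlapping sums do not describe the other genes of these lists. The part of these cells in the Lypd1 difference was not tested.

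**Figure D1:**
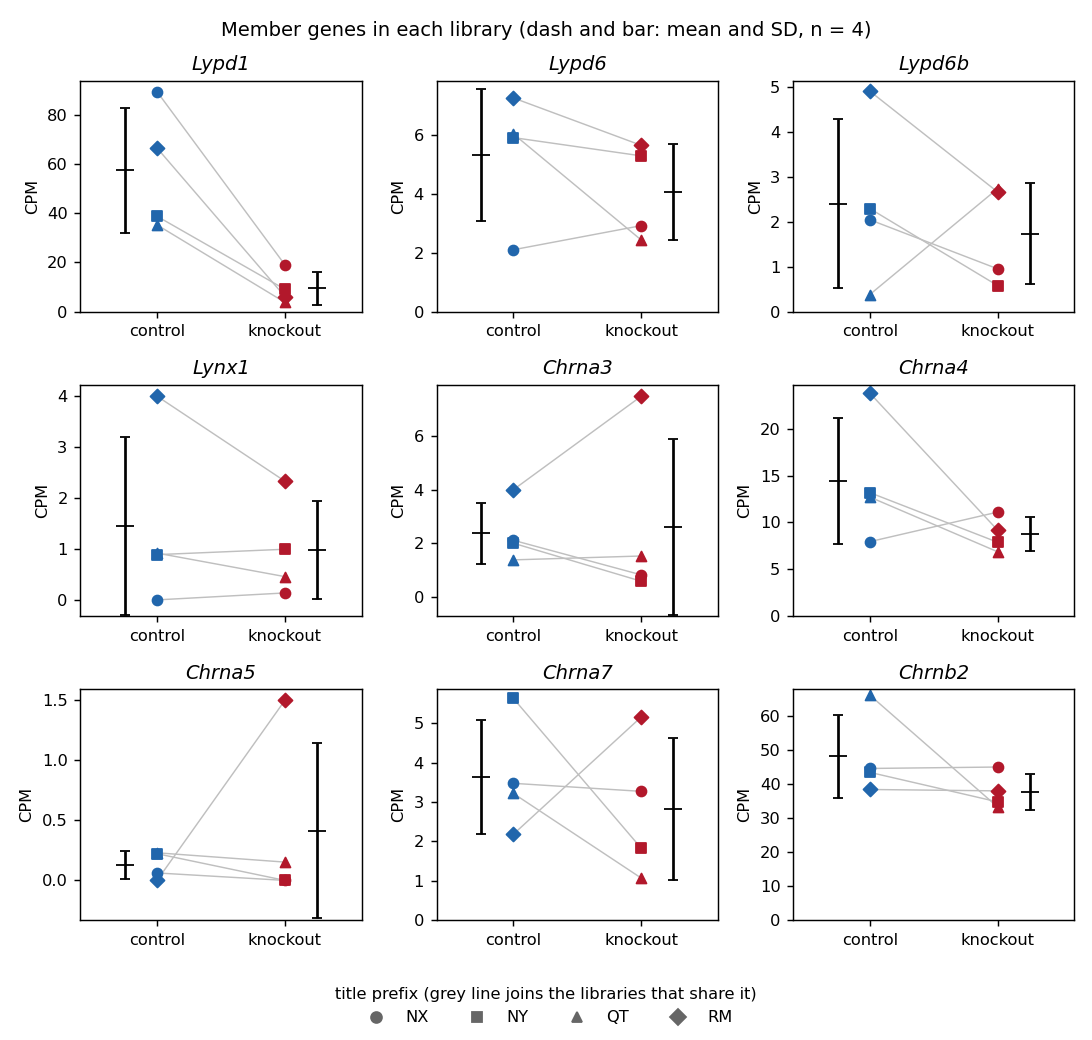
Level of the 9 member genes in each library in CPM (vertical axis, a scale of its own per gene) for control and knockout; symbols mark the title prefix, grey lines join libraries of 1 prefix, and dashes with bars give mean and SD (n = 4). Lypd1 is the single gene whose genotypes do not overlap, at 35.3 to 89.4 CPM against 3.81 to 19.1 CPM.

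Lypd1 is a protein-coding gene of chromosome 1 (125867622 to 125913101, minus strand, GRCm38). Exons of Gpr39, on the other strand, overlap exons of Lypd1 in GENCODE, and the kit does not keep the strand. Gpr39 itself was assigned 15 counts in the control RM library, 3 in control NX and 0 in the other 6, against 25 to 1442 for Lypd1. RSEM counted Lypd1 over 2 transcripts. The gene length it reported, which is weighted by their use, was 1731.00 bases in the knockout NX and QT libraries. It was between 1759.44 and 1817.23 bases in the other 6, with the longest in knockout RM.

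The stretches before the annotated starts of Lypd1 are shown because it is the member with the largest difference, beside that of Chrnb2, the next member by level, for which the genotypes overlapped. RefSeq (GRCm38.p6) gave a promoter for 7 of the 9 members and 3 starts for Lypd1. Each line runs 5′ to 3′ on the minus strand and ends 1 base before the start. Capitals mark a match, on either strand, of the GC box with the letters GGGCGG, of the box named for its letters CCAAT, or of the TATA box with the letters TATAAA. The first stretch has 119 bases because another annotated Lypd1 exon begins upstream of it, and the others have 250.

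Lypd1 start 1, chr1:125912929-125913047: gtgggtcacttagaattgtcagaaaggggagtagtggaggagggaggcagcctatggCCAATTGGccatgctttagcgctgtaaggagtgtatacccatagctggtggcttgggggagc
Lypd1 start 2, chr1:125912215-125912464: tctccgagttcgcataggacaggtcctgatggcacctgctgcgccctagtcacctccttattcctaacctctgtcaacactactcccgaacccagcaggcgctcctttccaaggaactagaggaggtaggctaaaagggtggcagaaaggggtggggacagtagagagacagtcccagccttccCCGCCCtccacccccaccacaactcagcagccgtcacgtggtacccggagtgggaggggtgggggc
Lypd1 start 3, chr1:125911388-125911637: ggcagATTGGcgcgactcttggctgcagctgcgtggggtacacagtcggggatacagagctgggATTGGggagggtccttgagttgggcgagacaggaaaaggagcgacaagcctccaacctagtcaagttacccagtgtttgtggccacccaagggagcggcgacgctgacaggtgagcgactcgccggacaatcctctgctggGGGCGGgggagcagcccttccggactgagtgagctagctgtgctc
Chrnb2, chr3:89764633-89764882: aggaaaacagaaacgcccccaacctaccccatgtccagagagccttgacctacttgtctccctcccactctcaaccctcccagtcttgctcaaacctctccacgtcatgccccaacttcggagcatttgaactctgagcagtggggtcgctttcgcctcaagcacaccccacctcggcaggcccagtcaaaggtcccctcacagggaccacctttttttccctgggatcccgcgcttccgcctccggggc

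Over 250 bases, the G and C content was 57.6%, 60.8% and 62.4% before the 3 Lypd1 starts and 59.6% before Chrnb2, all above the median of 52.4% over 32851 promoters. The CpG count was 8, 9 and 14 for Lypd1 and 10 for Chrnb2. Each Lypd1 window of 250 bases held 1 GC box, which 32.7% of all promoters hold. That of start 1 is not within the printed stretch. Starts 1 and 3 each held 2 matches of the CCAAT box, found in 33.8% of all. At start 1 the matches overlap on opposite strands. No TATA box was found in these 4 windows (12.4% of all promoters hold that motif). The core TAATTA of homeobox factors and TGTTTAC of forkhead factors were absent from them too, against 4.84% and 3.17% of all promoters, while TGACAG, a core of TALE homeobox factors, was found at 1 place each before starts 2 and 3 of Lypd1 (15.9% of all promoters). The E-box (CANNTG) was present before all 4 starts and in 66.2% of all promoters. These are matches of letters, not binding sites.

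The other Ly6 modulators were low, and their genotypes overlapped. Lypd6, whose product acts on nicotinic receptors and on Wnt signalling, had 2.11, 5.92, 6.05 and 7.27 CPM in controls and 2.93, 5.30, 2.44 and 5.66 CPM in knockouts (NX, NY, QT and RM). In 3 of 4 prefixes the knockout had less, with a log2 fold change of -0.38 (SE 0.52). Lypd6b, its close relative, had 2.05, 2.29, 0.383 and 4.91 CPM against 0.953, 0.580, 2.74 and 2.66 CPM in the same order. Only 5 counts lay behind the control QT value of Lypd6b, and its log2 fold change was -0.47 (SE 0.81). Lypd6b and Lypd6 are neighbours on the plus strand of chromosome 2, at 49787688 to 49948849 and 50066429 to 50193569 (GRCm38), 117579 bases apart.

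Lynx1, on the minus strand of chromosome 15 (74747852 to 74753046), had 0, 12, 12 and 22 counts in control and 2, 12, 3 and 14 counts in knockout libraries (NX, NY, QT and RM). Both NX libraries were under the floor of 3 counts, and both RM libraries were the highest of their genotype, at 3.998 and 2.33 CPM. The log2 fold change was -0.53 (SE 1.17). Its sign was positive without the control RM library (0.66) and, with all libraries, by limma-voom (0.52).

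Chrnb2 was the most abundant subunit gene by mean TPM. Its level was 44.5, 43.4, 66.0 and 38.3 CPM in controls and 44.9, 34.7, 33.2 and 37.9 CPM in knockouts (NX, NY, QT and RM). The control QT library stood above all others, and the remaining 7 lay within 33.2 to 44.9 CPM. Means were 48.1 ± 12.3 and 37.7 ± 5.22 CPM, with a log2 fold change of -0.35 (SE 0.23; -0.16 without the control QT library). Its gene spans 89746195 to 89764632 of chromosome 3 (minus strand), and exons of Adar overlap its exons on the other strand. Adar had 46.9 ± 3.21 CPM in controls and 47.4 ± 5.67 CPM in knockouts.

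Chrna4, the partner of Chrnb2 in the main brain receptor, had 7.94, 13.2, 12.7 and 23.8 CPM in controls and 11.1, 7.87, 6.85 and 9.15 CPM in knockouts. It was lower in the knockout in NY, QT and RM and higher in NX, so the genotypes overlapped. The log2 fold change was -0.71 (SE 0.38), and -0.36 without the control RM library. The TPM of Chrnb2 over that of Chrna4 was 4.64, 2.72, 4.29 and 1.33 in control and 3.34, 3.66, 3.99 and 3.43 in knockout libraries. The gene spans 181018380 to 181043546 of chromosome 2, on the minus strand.

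Chrna7 had 3.47, 5.63, 3.21 and 2.18 CPM in controls and 3.27, 1.82, 1.07 and 5.16 CPM in knockouts (log2 fold change -0.37, SE 0.60). The RM prefix ran against NY and QT, with more Chrna7 in the knockout. Its gene spans 63098692 to 63212569 of chromosome 7, on the minus strand.

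Chrna3 was low and Chrna5 at the floor in most libraries. Chrna3 had 34, 27, 18 and 22 counts in control and 12, 7, 10 and 45 counts in knockout libraries, and the knockout RM library was the highest of all 8 at 7.49 CPM. The log2 fold change was 0.12 (SE 0.82) with all libraries. It was -1.27 without knockout RM, and its sign was negative in 8 of 20 alternatives, among them limma-voom (-0.70), log2(TPM + 1) (-0.21) and no composition factors (-0.07). RSEM gave fractional counts for Chrna3 in 3 of 8 libraries, knockout RM among them. Chrna5 had 1, 3, 3 and 0 counts in control and 0, 0, 1 and 9 counts in knockout libraries. The knockout RM library was thus the only one above 3 counts for Chrna5, and no fold is given. On chromosome 9, Chrna5 (54980880 to 55007779, plus strand) and Chrna3 (55010111 to 55026562, minus strand) face each other 2331 bases apart. Chrnb4, the third gene of the cluster, lies 1591 bases beyond Chrna3 and had 3 to 13 counts, with 4 in knockout RM.

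**Figure D2:**
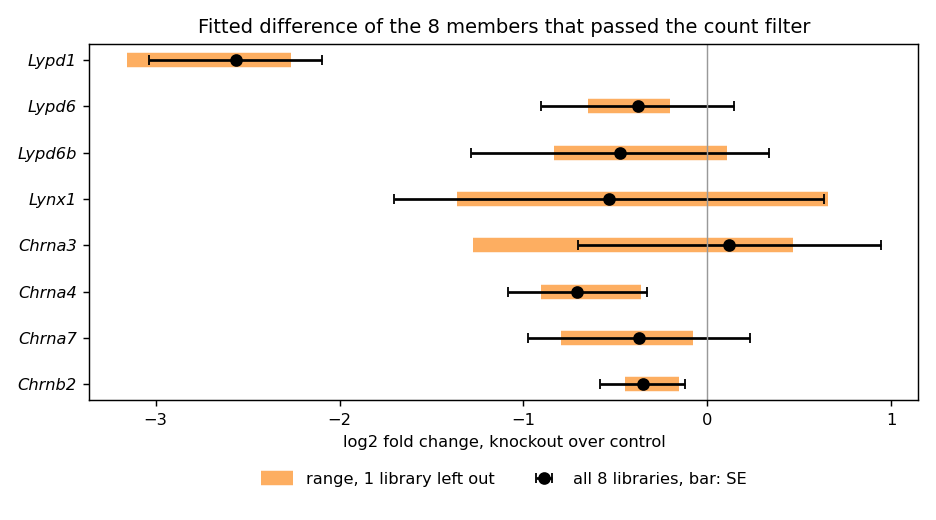
Log2 fold change of knockout over control (horizontal axis) for the 8 members that passed the count filter; points and black bars give the fit of all 8 libraries and its SE, orange bars the range when 1 library is left out. With 1 library left out, Lypd1 keeps to -3.16 to -2.26, and the orange bars of Lypd6b, Lynx1 and Chrna3 cross 0. The black SE bars of these genes, and also of Lypd6 and Chrna7, cross 0.

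Of the 8 members tested, 7 were fitted lower in the knockout and 1 (Chrna3) higher, with a median log2 fold change of -0.43. Over all 14157 genes tested, 50.6% were fitted lower and the median was -0.01. Without composition factors 8 of 8 members were fitted lower, with Chrna3 at -0.07. After adjustment over all genes (Benjamini-Hochberg, edgeR quasi-likelihood fit), 0 of 8 members were called, where 5 of 14157 genes were (0.0353%). At an unadjusted p under 0.05 the count was 1 of 8 (3.62% of all genes), and DESeq2 called 1 of 8 (0.275% of all genes); in both it was Lypd1. The genotypes did not overlap for 1 of 8, again Lypd1, against 2.59% of all genes (1.46% with the knockout lower). Calls of the same direction in the main test made up 0.0283% of genes. Other settings called 0.0636% of genes without composition factors, 0.0933% with every gene of at least 1 count, 0.198% with the prefix as a block, 0.0706% by limma on log2(TPM + 1) and 0.0141% by limma-voom. With fewer libraries the share was 0.0344% without knockout NX, 0.0278% without control NY, 0.00687% without knockout RM and 0.0214% without both NX libraries, and 0% in the other 8 such fits. Lypd1 was called in 6 of 20 alternatives: every gene of at least 1 count, the prefix as a block, DESeq2, log2(TPM + 1), without knockout NX and without both NX libraries. No other member was called in any of the 20. Because the members were listed with this contrast known, nothing is read from these counts.

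Levels of different genes can be set side by side in TPM, which is per length. Averaged over 8 libraries the order was Lypd1 (40.7 TPM), Chrnb2 (15.0), Chrna4 (4.72), Chrna7 (3.03), Lypd6 (2.46), Lypd6b (1.93), Chrna3 (1.39), Lynx1 (0.496) and Chrna5 (0.165). Only the steps from Chrnb2 to Chrna4 and from Chrna3 to Lynx1 were larger than their SD over libraries, at 1.67 ± 0.56 and 1.53 ± 1.32 on the log2(TPM + 0.1) scale (n = 8). Chrnb2 exceeded Chrna4 in 8 of 8 libraries. The 4 steps from Chrna4 down to Chrna3 were each smaller than their SD. Lypd1 exceeded Chrnb2 by 1.94 ± 0.88 in the 4 controls alone, in 4 of 4, but in 5 of 8 libraries in all.

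**Figure D3:**
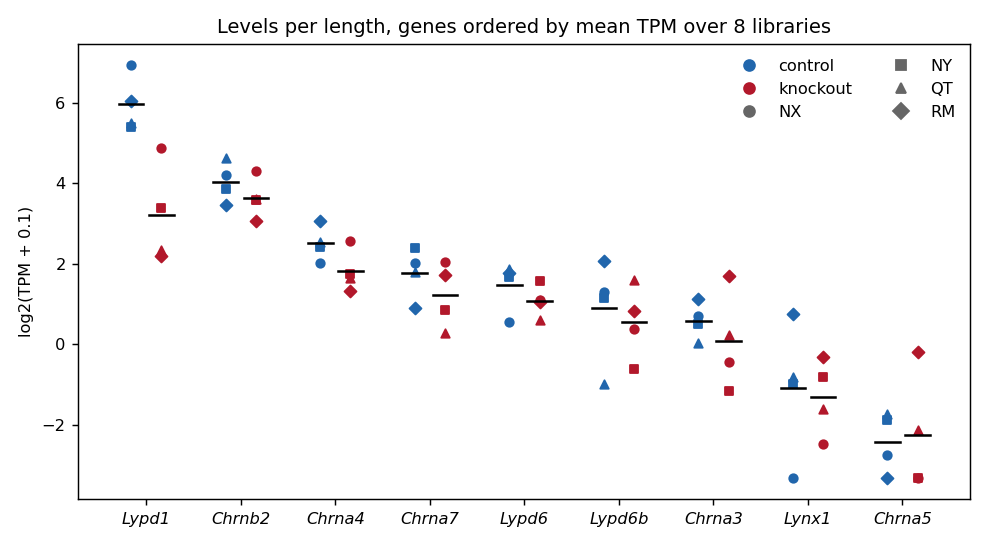
Level of each member per length, as log2(TPM + 0.1) (vertical axis), with genes ordered by mean TPM over 8 libraries; symbols are libraries and black lines the mean of 4. Lypd1 leads in controls at 42.05 to 123 TPM, and Chrna5 is lowest.

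Lypd1 made up most of the Ly6 set in every control library. Its share of the summed TPM of the 4 Ly6 genes was 97.0% (NX), 88.2% (NY), 91.0% (QT) and 88.0% (RM) in controls. In knockout libraries the share was 89.8% (NX), 72.7% (NY), 51.9% (QT) and 50.5% (RM), lower in each prefix, though the knockout NX value lies within the range of the controls. The other 3 Ly6 genes together had 5.72 ± 2.35 TPM in control and 4.05 ± 0.56 TPM in knockout libraries (n = 4 each).

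Within the 5 subunits, Chrnb2 held 47.5% to 70.6% of the summed TPM in control and 46.5% to 69.4% in knockout libraries. The RM libraries were the lowest of both genotypes. The sum itself was 27.9 ± 4.86 TPM in control and 20.7 ± 6.29 TPM in knockout libraries, with knockout NX (30.1 TPM) above 3 of the 4 controls. The TPM of Lypd1 was 6.74, 2.93, 1.85 and 6.03 times that of Chrnb2 in control (NX, NY, QT and RM). It was 1.50, 0.871, 0.408 and 0.537 times that of Chrnb2 in knockout libraries, so the order of the modulator and the receptor gene was the opposite in 3 of 4.

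**Figure D4:**
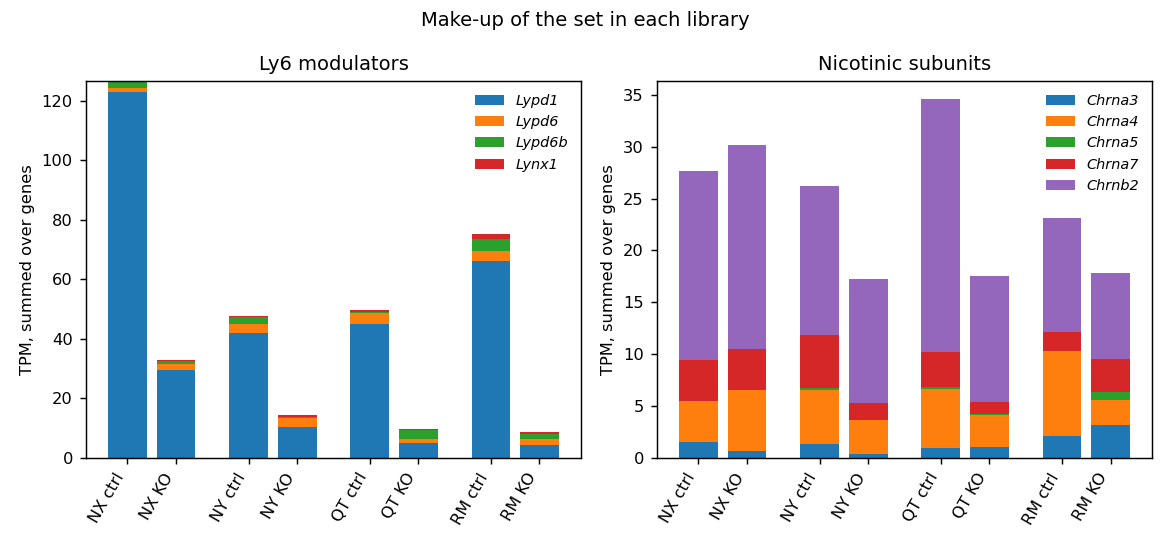
Summed TPM (vertical axis, from 0) of the 4 Ly6 modulators and the 5 nicotinic subunits in each library, in pairs of control (ctrl) and knockout (KO) by title prefix; colours are genes. The Lypd1 part shrinks in each pair, from 97.0% to 89.8% in NX and from 88.0% to 50.5% in RM, while Chrnb2 is the largest part of the subunits in all 8.

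By pattern over the 8 libraries, the genes most like Lypd1 were Plekhh2 (Pearson r of log2 CPM 0.960), Vegfa (0.956) and Ogdhl (0.953). Plekhh2 had 81.6 ± 44.3 CPM in controls and 15.2 ± 6.87 CPM in knockouts, and Ogdhl had 4.66 ± 0.534 and 1.83 ± 0.836 CPM. The genotypes did not overlap for Plekhh2 and Ogdhl and overlapped for Vegfa. Over all genes 2.59% did not overlap, and picking by likeness to Lypd1 favours such genes. Most like Chrnb2 were Fam171a2 (0.946), Pip5k1c (0.942) and Evl (0.941). These are the top 3 of all genes whose average log2 CPM was 1 or more, picked over libraries that share genotype, depth and prefix, and are a description with no test.

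The surroundings of these receptors were described with 5 further lists: other nicotinic subunits, other Ly6 genes, assembly and trafficking genes, acetylcholine supply and breakdown, and muscarinic receptors. Of 63 genes found, 23 were tested and 0 were called by edgeR's quasi-likelihood fit, where 0.0353% of all genes were. In that fit, 2 of the 23 had an unadjusted p under 0.05 (3.62% of all genes). DESeq2 called 0 of them (0.275% of all genes). With shares that low, 0 calls among 23 genes say little about these genes. With 13 fitted lower and 10 higher, the median log2 fold change was -0.0016, against -0.01 for all genes.

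Other nicotinic subunits were scarce. Chrna6, Chrna9, Chrna10, Chrnb3 and Chrnd had 0 counts in all 8 libraries, and 7 of 11 never exceeded 3 counts. The 2 tested were Chrna1 (2.37 ± 1.57 against 2.00 ± 1.404 CPM) and Chrnb1 (0.898 ± 0.154 against 1.08 ± 0.715 CPM), subunits known from muscle. Among 25 other Ly6 genes found, 11 were at 0 throughout and 2 were tested. Ly6h, a brain Ly6 protein that lowers surface levels of nicotinic receptors, had 4.03 ± 1.69 CPM in controls and 2.10 ± 0.478 CPM in knockouts. It was lower in 4 of 4 prefixes with overlapping genotypes (log2 fold change -0.94, SE 0.55). Ly6e had 25.5 ± 6.06 against 18.4 ± 1.06 CPM (-0.47, SE 0.26). Both had an edgeR quasi-likelihood adjusted p of 1.00 (n = 4 per genotype).

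Of 14 assembly genes found, 13 were tested and 0 called (0.0353% of all genes were). Rapsn, which anchors receptors at the muscle synapse, had 3 counts in knockout RM and 0 elsewhere. Ric3, an endoplasmic reticulum chaperone of nicotinic receptors, had 70.3 ± 10.3 CPM in controls and 63.0 ± 13.6 CPM in knockouts (log2 fold change -0.16, SE 0.21). Tmem35, which encodes the chaperone NACHO, had 78.1 ± 28.5 against 93.6 ± 38.1 CPM (0.26, SE 0.32). Per length, Tmem35 at 93.0 ± 50.7 TPM and Ric3 at 29.997 ± 6.95 TPM (n = 8) had means above those of the 5 subunits. Vsnl1, a calcium sensor that promotes surface delivery of the receptor of Chrna4 and Chrnb2, had the smallest p of the list. Its values were 3.91, 15.9, 11.6 and 78.9 CPM in controls and 352, 27.1, 45.7 and 72.5 CPM in knockouts. The knockout NX library stood far above the other 7, and the edgeR adjusted p of Vsnl1 was 1.00 (log2 fold change 2.21, SE 0.90).

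Chat, the enzyme that makes acetylcholine, had 0 counts in all 8 libraries, which allows up to 0.186 to 0.545 CPM. Slc5a7, the high-affinity choline transporter of cholinergic neurons, had 0 to 16 counts. Slc44a1, a choline transporter of many cell types, had 6.87 ± 3.30 CPM in controls and 9.09 ± 1.58 CPM in knockouts. Ache, the esterase, had 1.13 ± 1.49 CPM in controls and 1.17 ± 0.763 CPM in knockouts, and Bche, with the smallest p of 3 tested, had 2.24 ± 1.93 against 1.11 ± 0.593 CPM. Of the muscarinic receptors, Chrm1 had 30.5 ± 10.8 against 29.3 ± 16.2 CPM. Chrm4 had the smallest p of 3 tested, with 0.186, 1.48, 0.306 and 0 CPM in controls and 7.49, 1.66, 0.913 and 0.666 CPM in knockouts. It rests on 110 counts in knockout NX and 0 to 20 elsewhere (log2 fold change 2.37, SE 1.06; edgeR adjusted p = 1.00).

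**Figure D5:**
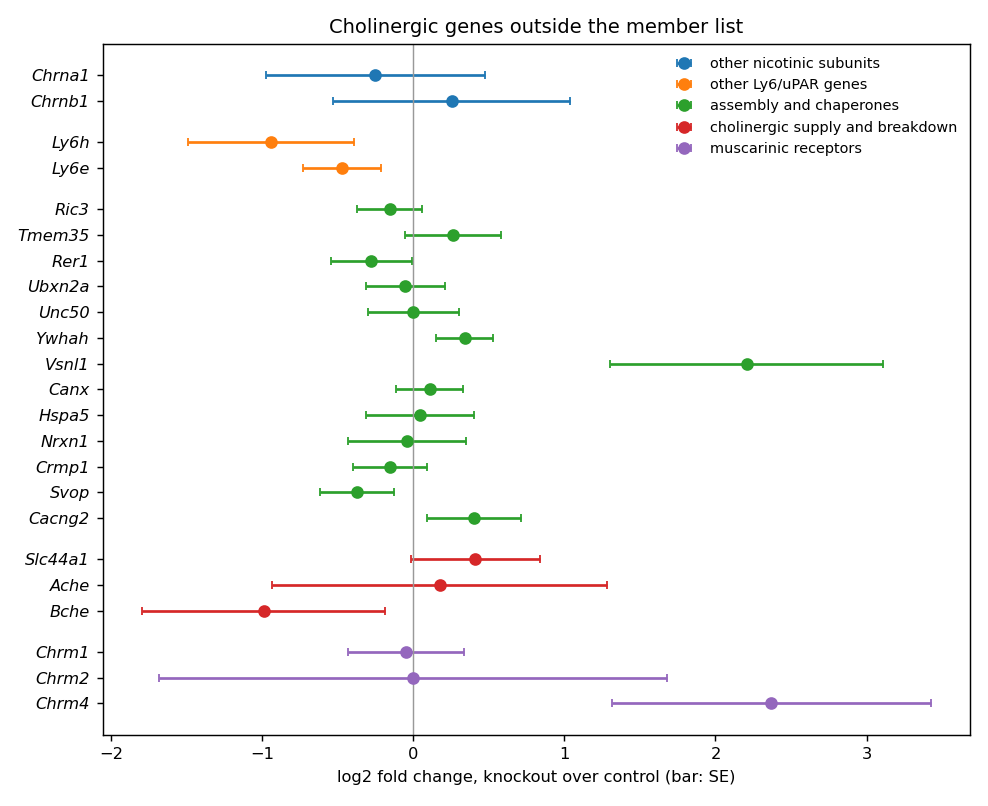
Log2 fold change of knockout over control with its SE (horizontal axis) for the 23 tested genes of the 5 further cholinergic lists, coloured by list. None was called, where 0.0353% of all genes were, and the 2 farthest from 0 are Chrm4 (2.37) and Vsnl1 (2.21).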

How the data were processed

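Amplified cDNA (NuGEN Ovation) of GFP-sorted amygdala cells went into Nextera XT libraries, per the labels' protocols. Tools named are Trimmomatic 0.33, RSEM 1.2.22 and Bowtie2, with the mm10 build, per the submitters' processing notes. The annotation used for counting is not named there. Deposited transcript identifiers of the members begin with uc, while positions given here are from GENCODE and starts from RefSeq. The deposited values are expected counts (estimated, not always whole) and TPM, per the file headers, and gene length in bases comes from the deposited sample files. The matrices and sample files differed by at most 0.

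Expected counts were rounded and fitted with edgeR 4.0.16 (R 4.3.3): filterByExpr left 14157 of 32543 genes, scaling was TMM, and the quasi-likelihood test compared knockout with control in 8 libraries with genotype as the single term. Genes were called at a Benjamini-Hochberg adjusted p under 0.05 over all genes. SEs were derived from the F statistic. The procedure was also run on simulated counts. These held no effect shared by libraries of 1 prefix, and nothing about the members is read from that run. Alternatives used DESeq2 1.42.0, limma 3.58.1 (voom, and log2 of TPM plus 1 or 0.1), other scaling and filters, the prefix as a block, and fewer libraries. Members and lists were chosen with earlier results of these data known. Named beside the members were 9 genes fixed by name (given where measured or at 0), the gene of each list with the smallest p where none was called, and the 3 genes most like the most abundant member of each class. Adar and Gpr39 were named for overlapping exons, and Chrna9, Chrna10, Chrnb1, Chrnd, Chrm1, Chrm5, Chat, Gbx2, Isl1, Lhx8, Rapsn, Slc5a7, Slc44a1, Foxp2 and Meis2 were named after their values were seen. Drd1, Gad2, Gsx2 and Oprm1 were also named after their values were seen. Positions are from GENCODE M21 (GRCm38).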

Additional observations from a re-analysis of the deposited data

Results flagged for a closer look

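In 2 of 18 groups of 4 (9 members by 2 genotypes), a library lay apart by Dixon's criterion for 4 values (gap over range). For normally distributed values chance gives about 1 in 20, which need not hold for low counts in groups that share libraries. Both cases were the knockout RM library, and both genes lie in the same cluster on chromosome 9. Chrna3 stood there at 7.49 CPM (0.580 to 1.52 CPM in the other knockout libraries; gap over range 0.864). Chrna5 stood at 1.50 CPM, from 9 counts (0 to 0.152 CPM in the others; gap over range 0.898). Chrnb4, the neighbouring gene of the cluster, had 4 counts in that library. The cause was not tested.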

How the results depend on the processing

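With all libraries, edgeR called 5 genes. The count over all genes was 9 without composition factors, 19 with every gene of at least 1 count, 39 by DESeq2, 10 with limma-trend on log2(TPM + 1), 2 by limma-voom, 3 without both NX libraries and 0 without either the NY, the QT or the RM pair of libraries; leaving out 1 library gave 0 to 5. The count of members called was 0 in the main analysis. It was 1 (Lypd1) with every gene of at least 1 count, by DESeq2, with limma-trend on log2(TPM + 1) and without both NX libraries, and 0 to 1 with 1 library left out (1 without knockout NX). With the prefix as a block, 28 genes and 1 member (Lypd1, log2 fold change -2.69) were called. Deviations of same-prefix libraries correlated at 0.385 (NX), 0.303 (NY), 0.0658 (QT) and 0.450 (RM), and 7 of 8 libraries correlated best with their own prefix, all but knockout QT. The labels do not say what the prefix marks, so the libraries were not treated as paired in the main fit. Across 20 alternatives Lypd1 was lower in 20 and called in 6. Lypd6, Chrna4 and Chrnb2 were lower in 20 of 20, Lypd6b and Chrna7 in 19, Lynx1 in 16 of 18, and Chrna3 was higher in 12 of 20. Tshz1 was lower in all 20 but not called with log2(TPM + 0.1) (-2.37), without the NY (-2.33), QT (-2.16) or RM (-2.18) pair, or in 6 of 8 fits with 1 library left out (all but those without knockout NX or control NY; -2.55 to -2.12 over the 8). No gene of the 5 further lists was called in any alternative, where 0 to 5 had an unadjusted p under 0.05. These alternatives called 0% to 0.275% of all genes. The steps between neighbouring levels that exceeded their SD were 2 of 8, 2 with a pseudocount of 1 and 3 in controls alone. The cause of these differences was not tested. Members under about 10 counts in a library (Chrna5, Lynx1, some Lypd6b and Chrna3 values, and Chrna7 with 7 in knockout QT) are limited by depth.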

Other observations

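Among muscarinic receptors, Chrm5 (chosen after its values were seen) had 22 counts in the knockout RM library, 1 in knockout NY and 0 in the other 6.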
